A study of Homo sapiens with 12 samples.

Results

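The genes described here are 8 enzymes of asparagine, glutamine and proline metabolism: ASNS, ASS1, GLUL, GOT1, GOT2, GPT2, ALDH18A1 and PYCR1. They were taken by symbol from an expression table of 17520 genes. The N6-methyladenosine (m6A) sites in their gene bodies, on the gene strand, were taken from a list for each condition and numbered 33 of 63578 sites with Torin1 and 75 of 96671 with insulin alone. The cells were HEK293E, a line derived from human embryonic kidney, starved of serum overnight. Torin1 is an inhibitor of the mTOR kinase. The insulin+Torin1 cells received 250 nM Torin1 before 200 nM insulin for 30 h, and the insulin cells received 200 nM insulin for 30 h without Torin1. Each condition had 3 input RNA-seq libraries and 3 miCLIP libraries, 12 samples in all, from mRNA taken through 2 rounds of poly(A) selection. miCLIP crosslinks an anti-m6A antibody to RNA and reads m6A from substitutions at the crosslink. All cells were starved and given insulin, so no group shows the cells without insulin. The labels call the replicates biological and do not say whether they came from separate cultures. P-values therefore reflect only how these libraries vary, and that variation may be technical.

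The 8 enzymes move nitrogen between a few amino acids. Asparagine synthetase (ASNS) makes asparagine from aspartate with glutamine as nitrogen donor, and argininosuccinate synthase (ASS1) joins aspartate to citrulline on the way to arginine. Glutamate-oxaloacetate transaminases make aspartate from glutamate in the cytosol (GOT1) and the mitochondrion (GOT2), and GPT2 is the mitochondrial alanine transaminase. Glutamine synthetase (GLUL) makes glutamine, and ALDH18A1 and PYCR1 catalyse the first and the last steps from glutamate to proline. mTOR complex 1 is known to raise the translation of ATF4, a transcription factor whose targets include ASNS and several other amino acid enzymes.

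Promoter sequence was on hand for 6 of the 8 genes, from RefSeq (GRCh38.p14), and 3 short motifs known to be bound by stress- or nutrient-responsive factors were searched in the 250 bases before each start site, on both strands. TGATGNAA, the core of the C/EBP-ATF response element, occurred in 3.14% of 35116 such windows. CACGTG, an E-box, occurred in 6.34%, and TGACGT, the core of the cyclic AMP response element, in 7.10%. The windows of 4 genes are shown because they hold a match and belong to the genes with the largest fall, a moderate fall, the rise, and the small fall described below. Each is written 5′ to 3′ on the gene strand, which is the minus strand for all 4, with matches in capitals.
ASNS: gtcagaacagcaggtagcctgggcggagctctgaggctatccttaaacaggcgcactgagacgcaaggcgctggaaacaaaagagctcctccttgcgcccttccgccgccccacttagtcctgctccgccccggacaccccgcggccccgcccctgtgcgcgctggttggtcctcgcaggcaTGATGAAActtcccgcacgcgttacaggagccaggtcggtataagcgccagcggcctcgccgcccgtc
GOT1: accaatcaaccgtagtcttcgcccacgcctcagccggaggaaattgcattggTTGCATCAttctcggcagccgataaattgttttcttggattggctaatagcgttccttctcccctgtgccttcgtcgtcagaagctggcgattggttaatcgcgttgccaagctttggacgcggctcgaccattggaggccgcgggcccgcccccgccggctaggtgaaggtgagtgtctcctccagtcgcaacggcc
GOT2: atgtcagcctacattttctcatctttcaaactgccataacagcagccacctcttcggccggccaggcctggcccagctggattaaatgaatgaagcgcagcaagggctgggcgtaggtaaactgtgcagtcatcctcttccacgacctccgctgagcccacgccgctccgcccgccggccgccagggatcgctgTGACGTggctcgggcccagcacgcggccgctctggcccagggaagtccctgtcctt
ALDH18A1: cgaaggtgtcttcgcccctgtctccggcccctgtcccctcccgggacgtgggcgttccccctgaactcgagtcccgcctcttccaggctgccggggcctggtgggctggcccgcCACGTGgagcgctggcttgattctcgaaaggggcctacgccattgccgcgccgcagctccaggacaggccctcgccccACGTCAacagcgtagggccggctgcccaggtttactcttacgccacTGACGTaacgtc
The windows are chr7:97872409-97872658 for ASNS, chr10:99430625-99430874 for GOT1, chr16:58734317-58734566 for GOT2 and chr10:95656712-95656961 for ALDH18A1. ASNS held TGATGAAA from 68 to 61 bases before its start site. GOT1 held the reverse complement of a TGATGNAA match, TTGCATCA, from 198 to 191 bases before. GOT2 held TGACGT from 56 to 51 bases before. ALDH18A1 held CACGTG from 136 to 131 bases before and TGACGT on either strand, nearer the start. At the second start site of ASS1, CACGTG lay from 71 to 66 bases before, and no match was found at its first start site, at the second start site of ASNS or at either start site of GLUL. A match describes the letters and is not evidence of binding.

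With Torin1, transcripts of ASNS, GPT2, GLUL, GOT1 and ALDH18A1 fell and those of GOT2 rose, while ASS1 and PYCR1 did not pass the test. The values are the authors' normalized values, rounded to whole numbers, and were compared by limma on log2(value + 1) with Benjamini-Hochberg adjustment over 13842 genes. With calls made at 0.05, 42.5% of tested genes fell and 43.4% rose with Torin1, so a call by itself sets no gene apart here. Beyond 1.5-fold (limma's treat test), 22.5% of genes fell and 25.0% rose, against 4 of the 8 enzymes that fell and 1 that rose. With equal totals and with quantile normalization 3 of the 8 fell beyond 1.5-fold, and the log2 fold change of GOT1 was -0.67 under either. The values of the 2 conditions did not overlap for 6 of the 8 enzymes, and for 86.3% of all tested genes. The median log2 fold change of all tested genes was 0.019, and it moved by 0.12 when libraries were scaled to equal totals. Named pseudogenes of ASNS (5), ASS1 (14), GLUL (6) and GOT2 (7) are annotated in RefSeq and have no row in the table, and how reads shared with them were counted is not given in the sources used here. In bulk RNA, fewer cells of a type and less RNA per cell cannot be told apart.

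**Figure D1:**
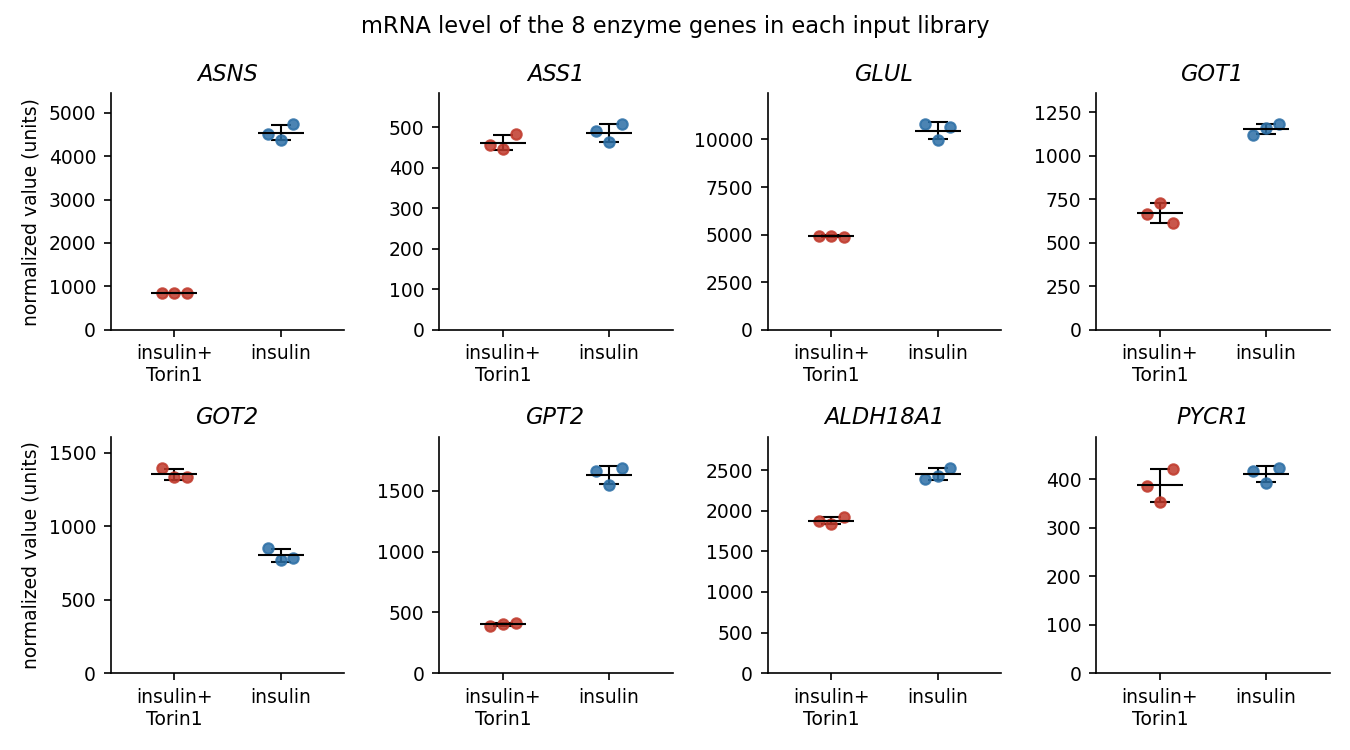
Normalized expression value of each of the 8 enzymes (vertical axis, authors' units) in the 3 insulin+Torin1 and the 3 insulin input libraries, 1 point per library, with mean and SD. ASNS lies at 838 to 847 with Torin1, against 4388 to 4739 with insulin, GOT2 is higher with Torin1, and the points of ASS1 and PYCR1 overlap.

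ASNS, the asparagine-making enzyme, changed most of the 8. It stood at 847, 838 and 845 in the insulin+Torin1 libraries, against 4521, 4388 and 4739 in the insulin libraries. The mean was 843 ± 4.73 with Torin1 and 4549 ± 177 with insulin (SD, n = 3 each), 5.39-fold lower with Torin1, and the groups were far apart. The log2 fold change was -2.43 (SE 0.038, limma adjusted p = 1.1e-23), and 2.58% of tested genes lay at or below it. The genes whose profile over the 6 libraries lay nearest were AL645728.1, ZNF3 and TRIM35, at distances of 0.127, 0.143 and 0.151 on the log2 scale.

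ASS1, the other enzyme that consumes aspartate, stood at 455, 447 and 482 with Torin1, against 490, 463 and 507 with insulin. The groups overlapped. The log2 fold change was -0.077 (95% interval -0.21 to 0.052, limma adjusted p = 0.251), and it was 0.049 with equal totals, where the median of all tested genes was 0.14, so its direction depended on the scaling.

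The 2 aspartate transaminases moved in opposite directions. Cytosolic GOT1 stood at 664, 729 and 614 with Torin1, against 1122, 1162 and 1182 with insulin. Its log2 fold change was -0.79 (SE 0.055, limma adjusted p = 4.6e-12). Mitochondrial GOT2 stood at 1399, 1335 and 1334 with Torin1, against 853, 771 and 784 with insulin. It was 1.69-fold higher with Torin1 (log2 fold change 0.76, SE 0.048, limma adjusted p = 6.5e-13). The groups overlapped for neither gene. The log2 ratio of GOT1 to GOT2 was -1.02 ± 0.131 with Torin1 and 0.53 ± 0.113 with insulin (SD, n = 3 each), a difference of -1.55 (two-sided exact permutation p = 0.1, the smallest that 3 against 3 allows; adjusted 0.12 over 6 gene pairs, chosen after the members' values were seen). The genes nearest to GOT2 in profile were SAMD9, SLIT2 and SPIDR, at distances of 0.0586, 0.0608 and 0.0690.

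GPT2, which passes nitrogen from glutamate to alanine, stood at 386, 408 and 409 with Torin1, against 1659, 1544 and 1689 with insulin. The mean with Torin1 was 24.6% of that with insulin, with no overlap (log2 fold change -2.02, SE 0.051, limma adjusted p = 2.5e-20). GLUL, which makes glutamine, stood at 4925, 4946 and 4848 with Torin1, against 10799, 9976 and 10638 with insulin. The Torin1 mean was 46.9% of the insulin mean, with no overlap, and the log2 fold change was -1.09 (SE 0.032, limma adjusted p = 3.9e-19).

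Of the proline enzymes, ALDH18A1 fell slightly and PYCR1 did not pass the test. ALDH18A1, the first step, stood at 1871, 1835 and 1922 with Torin1, against 2393, 2429 and 2528 with insulin. These groups did not overlap, and the log2 fold change was -0.38 (SE 0.037, limma adjusted p = 1.5e-09). The call was lost with quantile normalization (log2 fold change -0.073, limma adjusted p = 0.0764). PYCR1, the last step, stood at 387, 354 and 422 with Torin1, against 417, 393 and 424 with insulin. The groups overlapped and the log2 fold change was -0.088 (95% interval -0.24 to 0.060, limma adjusted p = 0.252). It was 0.037 with equal totals, and -0.20 with quantile normalization, where it was called (limma adjusted p = 0.0155).

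**Figure D2:**
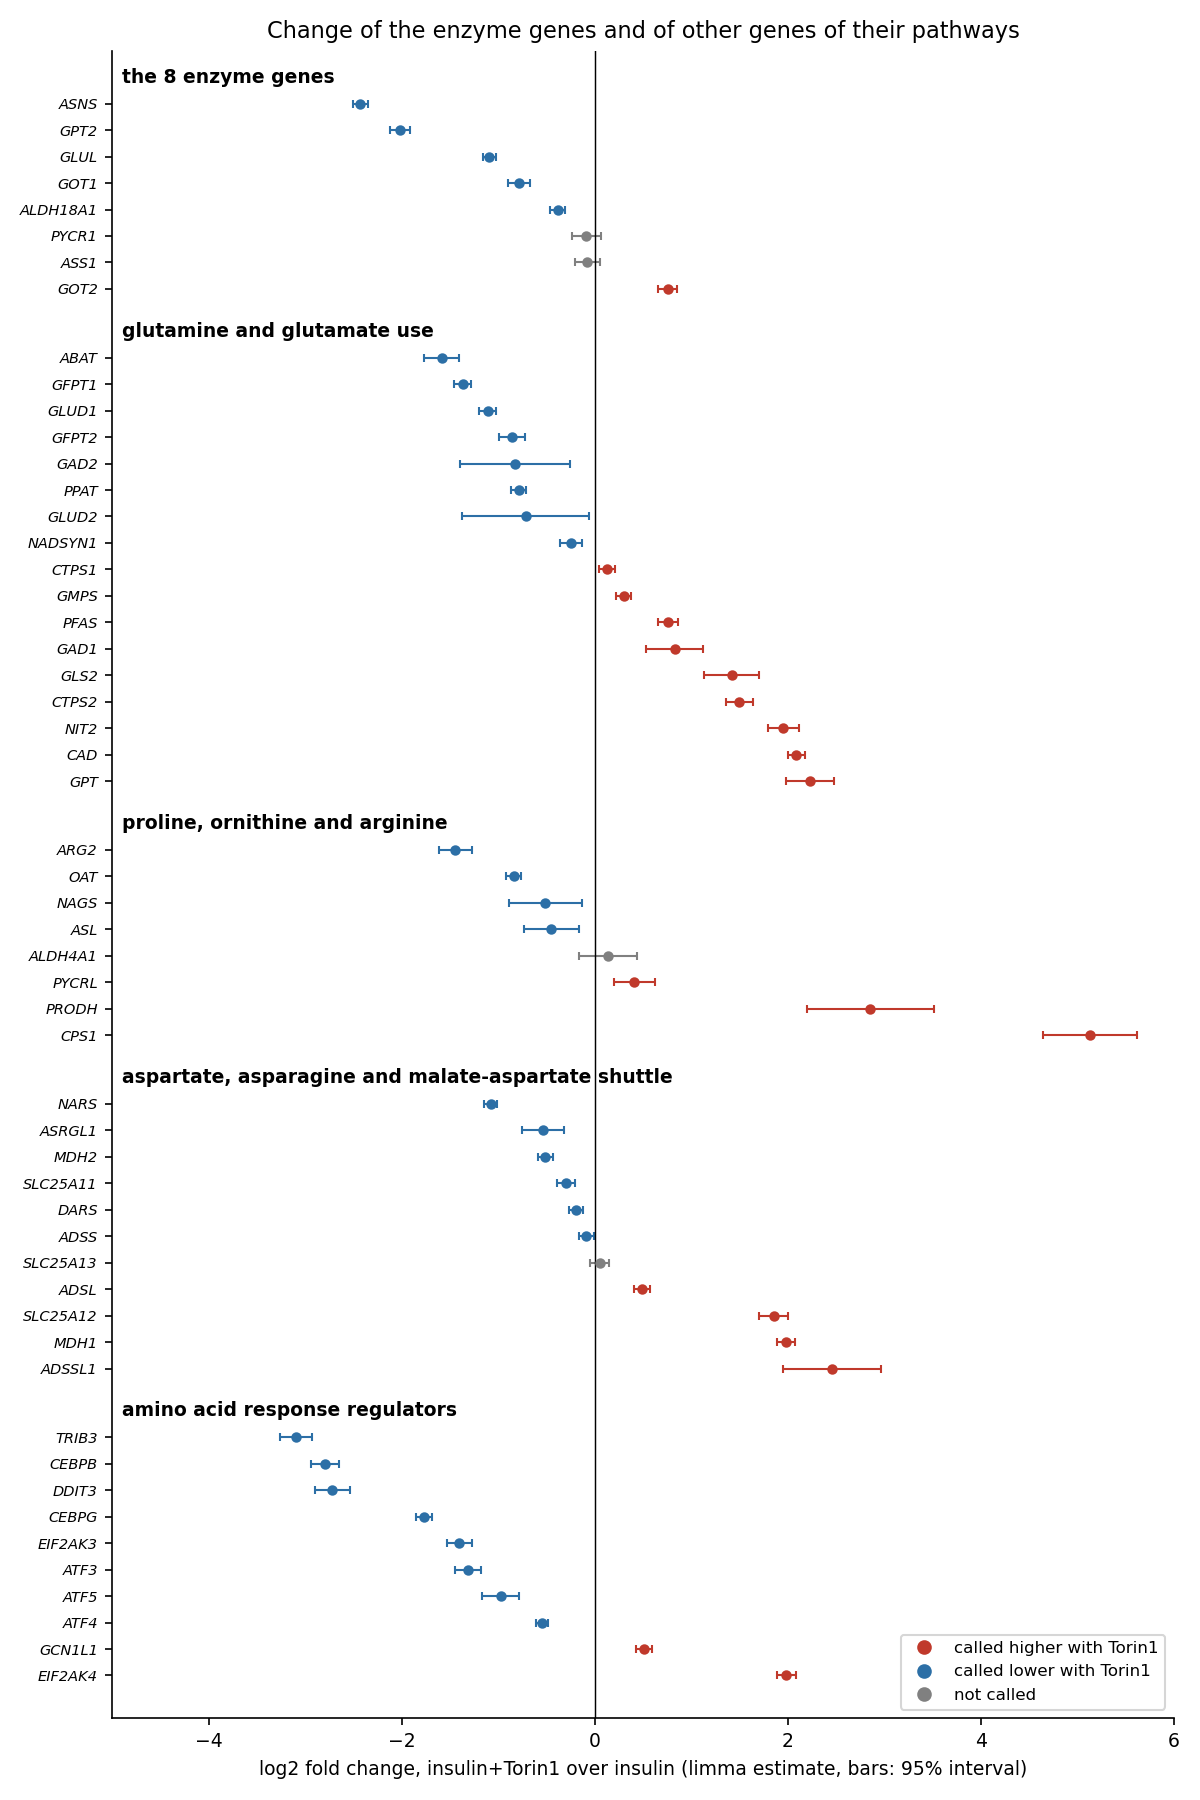
Log2 fold change, insulin+Torin1 minus insulin, of the 8 enzymes and of other tested genes of their pathways, with 95% intervals from limma. ASNS (-2.43) and GPT2 (-2.02) lie lowest of the 8 and GOT2 (0.76) highest.

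The other genes of these pathways moved both ways, as did all tested genes. Of 18 genes of glutamine and glutamate use, 9 rose and 9 fell, against 43.4% and 42.5% of all tested genes. Their median log2 fold change was -0.060, against 0.019 over all tested genes. GPT, the cytosolic alanine transaminase, rose by 2.23 on the log2 scale, opposite to mitochondrial GPT2. CAD, which starts pyrimidine synthesis, rose by 2.09 and NIT2, an omega-amidase, by 1.95, while ABAT, which degrades GABA, fell by 1.59 on the same scale. GLUD1, glutamate dehydrogenase, had a log2 fold change of -1.11, and reads of its near-identical paralog GLUD2 may be mixed with its own.

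Of 9 tested genes of proline, ornithine and arginine metabolism, 3 rose and 5 fell (median -0.24), against 43.4% and 42.5% of all tested genes. With any 1 of the Torin1 libraries left out, and with quantile normalization, 2 rose. CPS1, which feeds ammonia into the urea cycle, stood at 361, 368 and 341 with Torin1, against 10, 15 and 5 with insulin, the groups far apart (log2 fold change 5.13). PRODH, which degrades proline, stood at 39, 36 and 42 with Torin1, against 5, 3 and 6 with insulin, a log2 fold change of 2.86, or 2.20 with a pseudocount of 5. It passed the filter on low values only through the Torin1 libraries, so it was not tested when any 1 of them was left out. ARG2, mitochondrial arginase, fell by 1.44 on the log2 scale, and OAT, ornithine aminotransferase, fell by 0.84.

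Of 11 tested genes of aspartate, asparagine and the malate-aspartate shuttle, 4 rose and 6 fell (median -0.088), against 43.4% and 42.5% of all tested genes. With quantile normalization 7 rose. Within the shuttle, which GOT1 and GOT2 serve, the cytosolic malate dehydrogenase MDH1 rose by 1.98 on the log2 scale and the mitochondrial MDH2 fell by 0.52. Of the aspartate-glutamate carriers, SLC25A12 rose by 1.85, and SLC25A13, at higher values in both conditions, was not called (0.052, limma adjusted p = 0.305). SLC25A13 was called higher with equal totals (0.18) and with quantile normalization (0.21). ADSSL1, an adenylosuccinate synthetase, rose by 2.46, and NARS, which charges tRNA with asparagine, fell by 1.08.

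Of 10 tested regulators of the amino acid response, 8 fell and 2 rose (median -1.36), against 42.5% and 43.4% of all tested genes. Beyond 1.5-fold 7 fell and 1 rose, against 22.5% and 25.0% of all tested genes. ATF4 itself stood at 3297, 3318 and 3316 with Torin1, against 4845, 4868 and 4778 with insulin, a log2 fold change of -0.54. TRIB3, a pseudokinase, and DDIT3, the stress factor CHOP, are both known targets of ATF4. TRIB3 had a log2 fold change of -3.10 and DDIT3 one of -2.72. CEBPB, a transcription factor of the C/EBP family, had one of -2.80. EIF2AK4, the kinase GCN2 that senses uncharged tRNA, rose by 1.99.

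Markers of the cell line and of other cell types also moved. Of 7 HEK293 lineage markers, 4 passed the filter on low values (VIM, NEFM, KRT8 and KRT18), and their list summed to 8619 to 8636 with Torin1, against 3416 to 3484 with insulin, most of it VIM. VIM (log2 fold change 1.44), KRT8 and KRT18 (0.57) rose, while NEFM fell (-1.05). Mature kidney markers (3 of 6 tested) summed to 330 to 384 with Torin1, against 202 to 260 with insulin. Of these LRP2 rose (log2 fold change 1.09) and CUBN fell (-0.61), AQP1 was not called (-0.45), and the list's median was -0.45. Fibroblast and endothelium markers (2 of 5 tested, COL1A1 and COL3A1) summed to 528 to 548 with Torin1, against 188 to 238 with insulin, most of it COL1A1. COL3A1 passed the filter on low values only through the Torin1 libraries. The endothelial gene VWF was too low to be tested, with means of 5.67 with Torin1 and 0.67 with insulin. Blood markers (2 of 5 tested) summed to 1 to 10 with Torin1, against 105 to 121 with insulin, while the defining leukocyte genes PTPRC and CD3E stood at 1 or less. Hepatocyte markers (0 of 3 tested) summed to 9 to 14 with Torin1, against 10 to 14 with insulin. Their part in the results was not tested. Library totals of the normalized values were 11418114 to 11438881 with Torin1, against 12424643 to 12528454 with insulin.

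m6A sites were listed in 7 of the 8 enzymes with Torin1 and in all 8 with insulin. A site is a single adenosine with its reads and its substituted reads. Each position is listed under 1 replicate of its condition, so no spread between replicates is available and no test was made. GLUL held 11 sites with Torin1 and 29 with insulin. GPT2 held 3 sites with Torin1 and 13 with insulin, and ASNS held 2 with Torin1 and 9 with insulin. GLUL thus carried more listed sites than any of the other members. ALDH18A1 held 5 with Torin1 and 7 with insulin, GOT2 held 7 with Torin1 and 8 with insulin, and PYCR1 held 3 with Torin1 and 6 with insulin. GOT1 held 0 with Torin1 and 2 with insulin. ASS1, the exception, held 2 with Torin1, each on 1 of 1 read, and 1 with insulin, on 1 of 5 reads. Thus 7 of the 8 had fewer sites with Torin1, as did 65.1% of 9214 genes with at least 1 insulin site. GLUL, GPT2, ASNS and GOT2 have at least 8 insulin sites, and all had fewer sites with Torin1, as had 86.1% of the 3152 such genes. The other members have fewer insulin sites, and no background of similar site number was made for them. The shares of 65.1% and 86.1% are of genes chosen by their insulin sites alone. That choice by itself favours fewer sites with Torin1, so these counts cannot set the members apart. The lists differ in make-up, with 1552 Torin1 and 39670 insulin sites listed under replicate 2. Among sites listed under replicate 1, ASNS, GLUL, GOT1, GPT2 and ALDH18A1 had fewer with Torin1, which is 5 of 7 members with such a site in the insulin list, against 41.3% of 7736 genes. That background takes all genes with at least 1 such insulin site, while the 7 members have from 1 (GOT1) to 18 (GLUL). It was not matched for site number, so it cannot show an excess among the members. GOT2 had 7 sites with Torin1 and 4 with insulin under replicate 1, and PYCR1 had 3 with Torin1 and 2 with insulin.

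**Figure D3:**
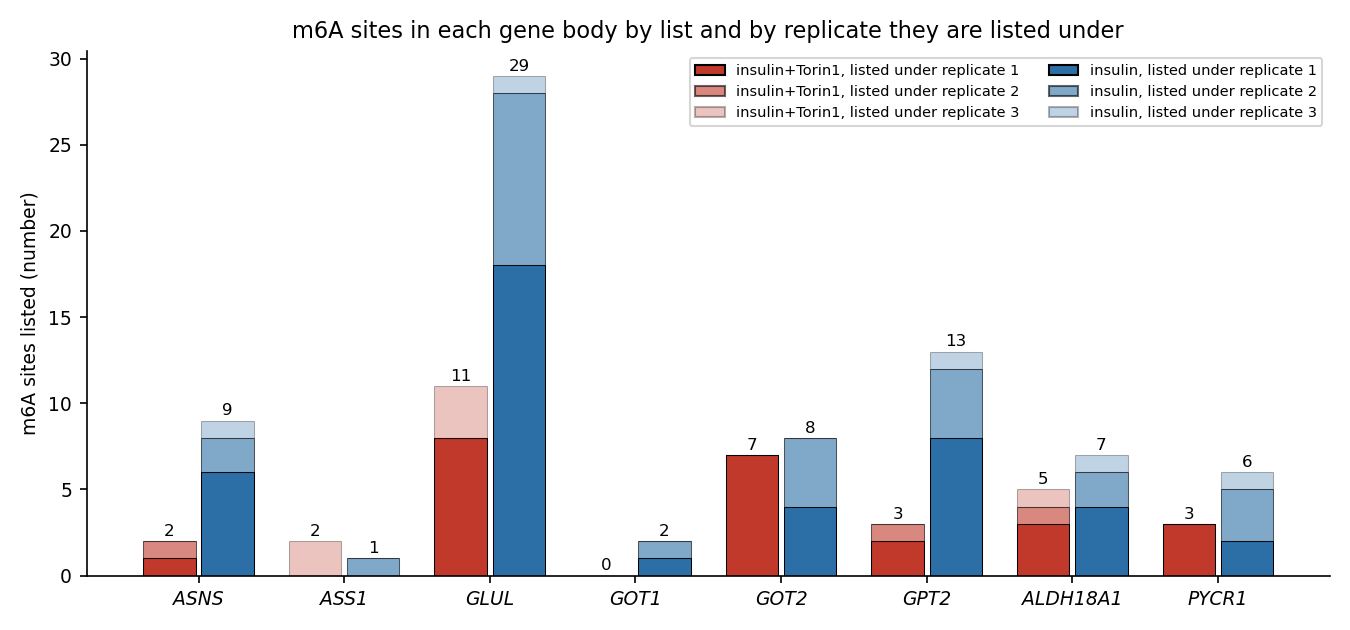
Number of listed m6A sites in each of the 8 genes (insulin+Torin1 and insulin lists), split by the replicate a site is listed under. GLUL holds the most sites, 11 with Torin1 and 29 with insulin. Of the 8 genes only ASS1 has more with Torin1 than with insulin, 2 and 1, each on 1 substituted read.

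The 5 genes with fewer replicate 1 sites with Torin1 are the 5 whose transcripts fell, and GOT2, whose transcripts rose, had more. PYCR1, whose transcripts were not called, also had more, 3 with Torin1 and 2 with insulin. Some of these differences are small, with 0 and 1 for GOT1 and 3 and 4 for ALDH18A1 (Torin1 and insulin). The part of transcript level in these counts was not tested. The 2 lists shared 20 positions in the 8 genes. These are 60.6% of the Torin1 sites (Wilson 95% interval 43.7 to 75.3) and 26.7% of the insulin sites (18.0 to 37.6). In the whole lists 43.1% of Torin1 and 28.3% of insulin sites were shared. GLUL alone gave 10 of the 20 shared positions, from its 11 Torin1 sites. The intervals treat sites as independent, so they cannot show an excess over the whole lists. Many sites rest on 1 substituted read, 17 of 33 with Torin1 and 41 of 75 with insulin, against 59.6% of the whole Torin1 list and 61.6% of the whole insulin list. The 4-base core GGAC, the sequence context most often methylated, held 13 of the 33 sites with Torin1 and 25 of the 75 with insulin, against 32.9% and 31.5% of the whole Torin1 and insulin lists. Within 2000 nt of the annotated gene end lay 13 of the sites with Torin1 (39.4%) and 26 with insulin (34.7%), against 33.4% of Torin1 and 32.4% of insulin sites over 15843 genes. The members differed widely in this, so the pooled share describes no single gene. GLUL had 0 of its 11 Torin1 and 0 of its 29 insulin sites there, and GOT2 had 6 of 7 and 8 of 8.

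Many of the sites lay in short stretches, positioned here on hg38. In GLUL (chromosome 1, 182378098 to 182391790, minus strand), 14 positions lay between 182383673 and 182384643, 8 of them listed with Torin1 and 14 with insulin. In GPT2 (chromosome 16, 46884362 to 46931289, plus strand), 10 lay between 46928963 and 46929958, 3 with Torin1 and 10 with insulin. In GOT2 (chromosome 16, 58707131 to 58734316, minus strand), 11 lay between 58707180 and 58708146, 6 with Torin1 and 8 with insulin, within 1015 nt of the annotated gene end. ASNS (chromosome 7, 97851677 to 97928441, minus strand) overlaps a readthrough transcript, CZ1P-ASNS, and their sites cannot be told apart. ALDH18A1 (chromosome 10, 95605941 to 95656711, minus strand) and PYCR1 (chromosome 17, 81932391 to 81937300, minus strand) held at most 5 and 6 positions in any 1000 nt. GOT1 lies on chromosome 10 (99396870 to 99430624, minus strand) and ASS1 on chromosome 9 (130444707 to 130501274, plus strand). The annotation used gives gene bounds only, so exons and UTRs were not assigned. The strand of GPT2 and PYCR1 was taken as that of most of their sites.

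The GLUL stretch carried the most reads. At 182384643, in the 5-mer GGACA, 5 of 108 reads were substituted with Torin1 (4.63%, Wilson 95% interval 1.99 to 10.4) and 17 of 153 with insulin (11.1%, 7.05 to 17.1). At 182384545 the counts were 4 of 204 with Torin1 and 9 of 214 with insulin. Summed over the 6 GLUL positions listed under replicate 1 in both conditions, 20 of 661 reads were substituted with Torin1 (3.03%, 1.97 to 4.63). With insulin the sum was 40 of 771 (5.19%, 3.83 to 6.99). A read that spans neighbouring positions is counted at each, here and in the sums outside the 8 genes. The summed counts may therefore exceed the number of reads, and their intervals may be too narrow. All these intervals cover counting error at most, and they overlap. At 4 of the 6 positions the share was lower with Torin1. Outside the 8 genes, 16255 positions listed under replicate 1 in both conditions gave 4.24% with Torin1 and 7.97% with insulin. Of these, 71.4% had the lower share with Torin1. The 16255 positions held 1301330 reads with Torin1 and 590688 with insulin, and every listed site has at least 1 substituted read. The part of this difference in reads in the shares was not tested. GLUL had fewer reads with Torin1 at 5 of its 6 positions, as had 20.3% of those outside the 8 genes.

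Elsewhere the reads were fewer. GOT2 at 58708101 had 3 of 56 reads substituted with Torin1 and 3 of 8 with insulin. GPT2 at 46929077 had 4 of 39 with Torin1 and 3 of 92 with insulin. PYCR1 at 81932684 had 2 of 31 with Torin1 and 7 of 19 with insulin, listed under different replicates. ALDH18A1 at 95606882 had 2 of 52 with Torin1 and 1 of 28 with insulin. The position shared in ASNS, 97871759, had 1 of 1 with Torin1 and 1 of 4 with insulin. GPT2 at 46929061 was listed with insulin alone, at 7 of 64 reads, and GOT2 at 58708002 with Torin1 alone, at 5 of 84. GOT1 had its most substituted reads with insulin at 99397361, 3 of 8. At all 20 shared positions the intervals of Torin1 and insulin overlapped.

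**Figure D4:**
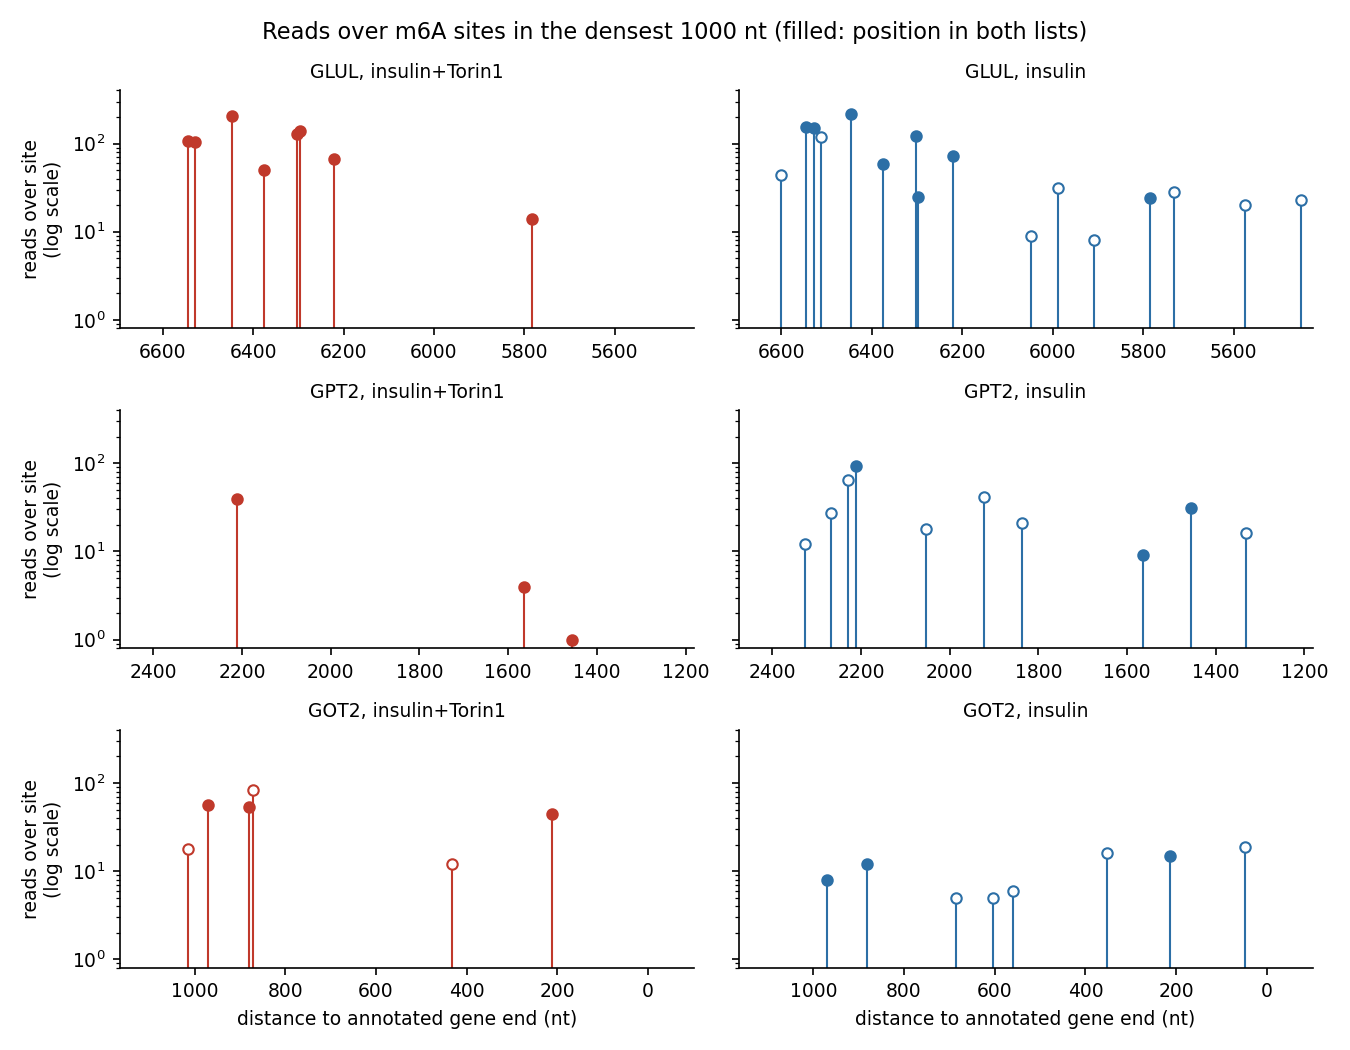
Reads over each m6A site (vertical axis, log scale) against its distance to the annotated gene end (horizontal axis, nt, reading 5′ to 3′ from left to right) in and just beside the densest stretch of GLUL, GPT2 and GOT2, with insulin+Torin1 on the left and insulin on the right. Filled points are positions listed in both conditions. GLUL reaches 204 reads with Torin1 and 214 with insulin, while the GPT2 stretch holds 3 sites with Torin1 and 10 with insulin.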

How the data were processed

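Input RNA-seq and miCLIP were made from HEK293E cells, 3 libraries per group in 4 groups, and the input libraries carry the expression comparison. The authors deposited 1 expression table of normalized values rounded to whole numbers, treated here as a score because low whole numbers are missing in 5 of 6 libraries and so the values are not raw counts. The step between low values corresponds to depths of 7.32 M to 11.8 M reads in those 5 libraries, and depth was not resolved for Torin1 replicate 1. The authors also deposited 1 m6A site list per condition, each site with its reads, substituted reads and their fraction. The submitters' processing notes name hg38, BWA 0.7.1, STAR and DESeq2 1.22.2, without their roles. Genes that reached 10 in 3 or more libraries were compared with limma 3.58.1 (R 4.3.3, trend) on log2(value + 1). The procedure was tested on simulated data. Wilson 95% intervals describe substituted reads. Named genes are the 8 members, up to 4 called genes of largest absolute log2 fold change per pathway list, and the 3 genes nearest in profile to the largest fall and rise, and other genes named were chosen after their values were seen. Members and lists were chosen with earlier results of these data known. Alternatives were other pseudocounts, filters, scalings, no trend, a replicate block, stricter site minimums and leaving out each library. Some genes of the lists are counted but not reported here by name.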

Additional observations from a re-analysis of the deposited data

How the results depend on the processing

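At an adjusted p of 0.05, the calls of ASNS, GPT2, GLUL, GOT1 and GOT2 kept their direction and side of the threshold under all 13 alternatives run on the expression values, but beyond 1.5-fold 3 members in place of 4 fell with equal totals and with quantile normalization. Scaling to equal totals turned the direction of ASS1 (log2 fold change 0.049), PYCR1 (0.037) and ADSS (0.038). It moved the median of all tested genes by 0.12, to 0.14, and each of these 3 stayed below that median. With quantile normalization ALDH18A1 was not called (-0.073), PYCR1 was called lower (-0.20), and 7 genes of the aspartate and shuttle list rose. That setting also turned ADSS (0.20), DARS (0.10) and ALDH4A1 (-0.25). The cause was not tested. Same-numbered libraries showed no shared deviation (correlations of -0.023, 0.0097 and -0.0040), which cannot tell whether they were prepared in pairs. With the replicate block the number of genes called lower with Torin1 was 5867 and that of genes called higher with Torin1 was 5983. No member's call changed with that block. Site counts fell by construction with stricter minimums. With at least 3 substituted reads, 10 sites with Torin1, 19 with insulin and 6 shared positions were left. With at least 10 reads, 19 with Torin1, 49 with insulin and 13 shared were left. Under replicate 1 alone, 24 with Torin1, 43 with insulin and 9 shared were left. Leaving out each miCLIP replicate in turn gave 9 to 33 Torin1 sites, 32 to 75 insulin sites and 5 to 19 shared positions. Without Torin1 replicate 1, 9 Torin1 sites and 5 shared positions were left, and without insulin replicate 1, 32 insulin sites and 7 shared positions. Without insulin replicate 2, 48 insulin sites were left.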
